A study of Rattus norvegicus with 8 samples.

Results

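Transcripts of 9 CXC chemokines and 1 of their receptors were measured in the outflow vein of rat arteriovenous fistulas (AVF) held in a scaffold that released BAPN, β-aminopropionitrile, an inhibitor of lysyl oxidase enzymes, which crosslink the collagen and elastin of the vessel wall. The 10 genes, Cxcl1, Cxcl2, Cxcl9, Cxcl10, Cxcl11, Cxcl12, Cxcl13, Cxcl14, Cxcl16 and Cxcr3, were taken by name from the 32623 genes counted, and 10 of 10 were found. The veins came from 8 Sprague Dawley rats of both sexes, 4 with a BAPN scaffold (BAPN 1 to 3 female, BAPN 4 male) and 4 with a vehicle scaffold without BAPN (Vehicle 1 and 2 female, Vehicle 3 and 4 male), and were collected 21 days after the fistula was made. In every rat the epigastric vein had been joined to the femoral artery and wrapped in a bilayer nanofiber sheet at once, so that the surgery and the sheet itself were common to both groups, and no vein without a sheet entered the comparison. The age of the rats was not given in the sources used here. Each library was prepared from the total RNA of 1 rat's vein, so a transcript level can follow the number of cells that carry the transcript or the RNA in each cell, and these cannot be told apart.

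Chemokines are small secreted proteins that bind receptors on leukocytes and direct their migration. The CXC class is named for a pair of cysteines with 1 residue between them, and its members differ in the cells they attract. Cxcl9, Cxcl10 and Cxcl11 are induced by interferon gamma and attract activated T cells and natural killer cells through the receptor Cxcr3. Cxcl1 and Cxcl2 attract neutrophils through Cxcr2. Cxcl12 is made constitutively in many organs, where it holds leukocytes and progenitors through Cxcr4, and Cxcl13 guides B cells through Cxcr5. Cxcl14 is a chemokine of resting epithelia and stroma, and Cxcl16 is made as a transmembrane protein that binds Cxcr6 on T cells and can be shed.

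The interferon-induced ligands lie side by side on rat chromosome 14 in the order Cxcl11, Cxcl10, Cxcl9, with no other protein-coding gene of the RefSeq annotation between them, and Cxcl2 and Cxcl1 are neighbours elsewhere on that chromosome. The 250 bases before the annotated start of these 5 genes, and of Cxcl12 on chromosome 4, are given below because they include both ligand clusters that the comparison contrasts and the 1 gene of the set that fell. They are RefSeq sequences of the rat assembly GRCr8, read 5′ to 3′ in the direction of the gene. The Cxcl11 window is chr14:15973478-15973727 on the plus strand, that of Cxcl10 is chr14:15988816-15989065 on the plus strand and that of Cxcl9 is chr14:16006916-16007165 on the plus strand. The Cxcl1 window is chr14:17479322-17479571 on the minus strand, that of Cxcl2 is chr14:17467256-17467505 on the minus strand and that of Cxcl12 is chr4:152060531-152060780 on the plus strand. Capitals mark matches, on either strand, to 1 of 3 motifs. These were GAAA and GAAA with any 2 bases between (the core of the interferon-stimulated response element), TTC and GAA with any 3 bases between (the gamma-activated site form), and GGG and TTCC with any 3 bases between (the NF-κB site form).
Cxcl11: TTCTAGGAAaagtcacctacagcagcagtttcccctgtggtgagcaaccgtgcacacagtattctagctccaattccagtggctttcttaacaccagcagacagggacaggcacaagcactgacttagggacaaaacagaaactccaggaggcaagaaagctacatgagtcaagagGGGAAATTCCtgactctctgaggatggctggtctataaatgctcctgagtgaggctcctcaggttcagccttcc
Cxcl10: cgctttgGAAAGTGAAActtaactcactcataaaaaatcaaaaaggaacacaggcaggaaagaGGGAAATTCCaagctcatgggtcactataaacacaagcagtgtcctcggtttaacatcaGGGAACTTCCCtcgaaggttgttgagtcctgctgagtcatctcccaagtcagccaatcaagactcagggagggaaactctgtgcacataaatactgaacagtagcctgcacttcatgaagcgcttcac
Cxcl9: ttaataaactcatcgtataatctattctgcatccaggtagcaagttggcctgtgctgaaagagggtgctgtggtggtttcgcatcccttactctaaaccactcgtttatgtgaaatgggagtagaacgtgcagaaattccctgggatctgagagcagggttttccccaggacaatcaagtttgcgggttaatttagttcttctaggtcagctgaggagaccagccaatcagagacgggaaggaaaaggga
Cxcl1: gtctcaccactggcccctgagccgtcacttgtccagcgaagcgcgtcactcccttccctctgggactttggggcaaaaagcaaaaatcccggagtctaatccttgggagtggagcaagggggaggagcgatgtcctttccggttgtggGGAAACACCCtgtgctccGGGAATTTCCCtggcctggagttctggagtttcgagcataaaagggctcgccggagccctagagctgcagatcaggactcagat
Cxcl2: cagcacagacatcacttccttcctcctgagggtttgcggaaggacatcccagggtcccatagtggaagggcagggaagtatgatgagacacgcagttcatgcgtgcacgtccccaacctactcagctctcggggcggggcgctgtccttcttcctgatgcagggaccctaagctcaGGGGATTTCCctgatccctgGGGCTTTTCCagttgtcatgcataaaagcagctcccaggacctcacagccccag
Cxcl12: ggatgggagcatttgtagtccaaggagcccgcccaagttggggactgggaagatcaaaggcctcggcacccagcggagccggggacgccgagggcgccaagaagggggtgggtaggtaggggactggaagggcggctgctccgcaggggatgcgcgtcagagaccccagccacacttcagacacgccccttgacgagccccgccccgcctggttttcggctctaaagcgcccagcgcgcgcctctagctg

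The response element form was found in Cxcl10, from 243 to 234 bases before the start, and in no other promoter of the 10 genes. It occurs in 3.41% of the 33469 rat promoter windows of 250 bases. The gamma-activated site form was found in Cxcl11, at 250 to 242 bases before the start, against 7.67% of all windows. NF-κB forms were found in Cxcl10 (3 matches, of which 2 overlap on opposite strands), Cxcl11 (1 match), Cxcl1 (3 matches, of which 2 overlap on opposite strands) and Cxcl2 (2 matches), against 4.53% of all windows. The windows of Cxcl9, Cxcl12, Cxcl13, Cxcl14, Cxcl16 and Cxcr3 held none of the 3 motifs. The motifs were chosen with the sequences and the expression results known, so the matches only describe the sequence.

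Levels are given as CPM, read counts scaled to a common library size after TMM normalization, and fold changes compare BAPN with vehicle on the log2 scale. The fold changes are those of edgeR. The standard error (SE) and the 95% interval belong to limma-voom's own estimate of the change and are not adjusted for the number of genes. An interval need therefore not be centred on the fold change printed beside it, as with Cxcl2 and Cxcl11. The FDR is the Benjamini-Hochberg adjusted p of edgeR's quasi-likelihood test over the 11682 genes with a base mean, the mean normalized count, of at least 100. A gene was called, and is said to have risen or fallen, at an FDR below 0.05. Of the 10 CXC genes, 8 had a base mean of at least 100 and were tested, and 3 of the 8 were called. Cxcl10 and Cxcl11 rose and Cxcl12 fell, while Cxcl9, Cxcl13, Cxcl14, Cxcl16 and Cxcr3 were not called and Cxcl1 and Cxcl2 lay below the expression limit. Among all tested genes 16.8% were called, 7.50% higher and 9.25% lower, and the median log2 fold change was 0.02. The levels of Cxcl10, Cxcl11 and Cxcl16 did not overlap between the groups, and all 3 were higher with BAPN in all 4 rats, against 12.7% of tested genes that lay higher without overlap and 24.7% without overlap in either direction. CXC chemokines are among the immune genes that the study itself named from these libraries, so their direction here is not independent evidence.

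The total count was 45039451 to 52241007 in BAPN libraries and 19548203 to 22442050 in vehicle libraries, and the tested genes held 99.50% to 99.66% of it. The 2 groups did not overlap in depth, so the effect of BAPN and any effect of library preparation or sequencing cannot be told apart. One read stood for 0.0197 to 0.0231 CPM in BAPN libraries and for 0.0421 to 0.0494 CPM in vehicle libraries. When all libraries were thinned to the smallest total, Cxcl10, Cxcl11 and Cxcl12 were still called, and Cxcl16 was added (FDR 0.0499). Endothelial markers (summed level 186 to 358 CPM with BAPN and 456 to 1162 CPM with vehicle, Pecam1 not analysed here) and smooth muscle markers (1404 to 3926 CPM and 2873 to 5508 CPM) were present in every library.

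**Figure D1:**
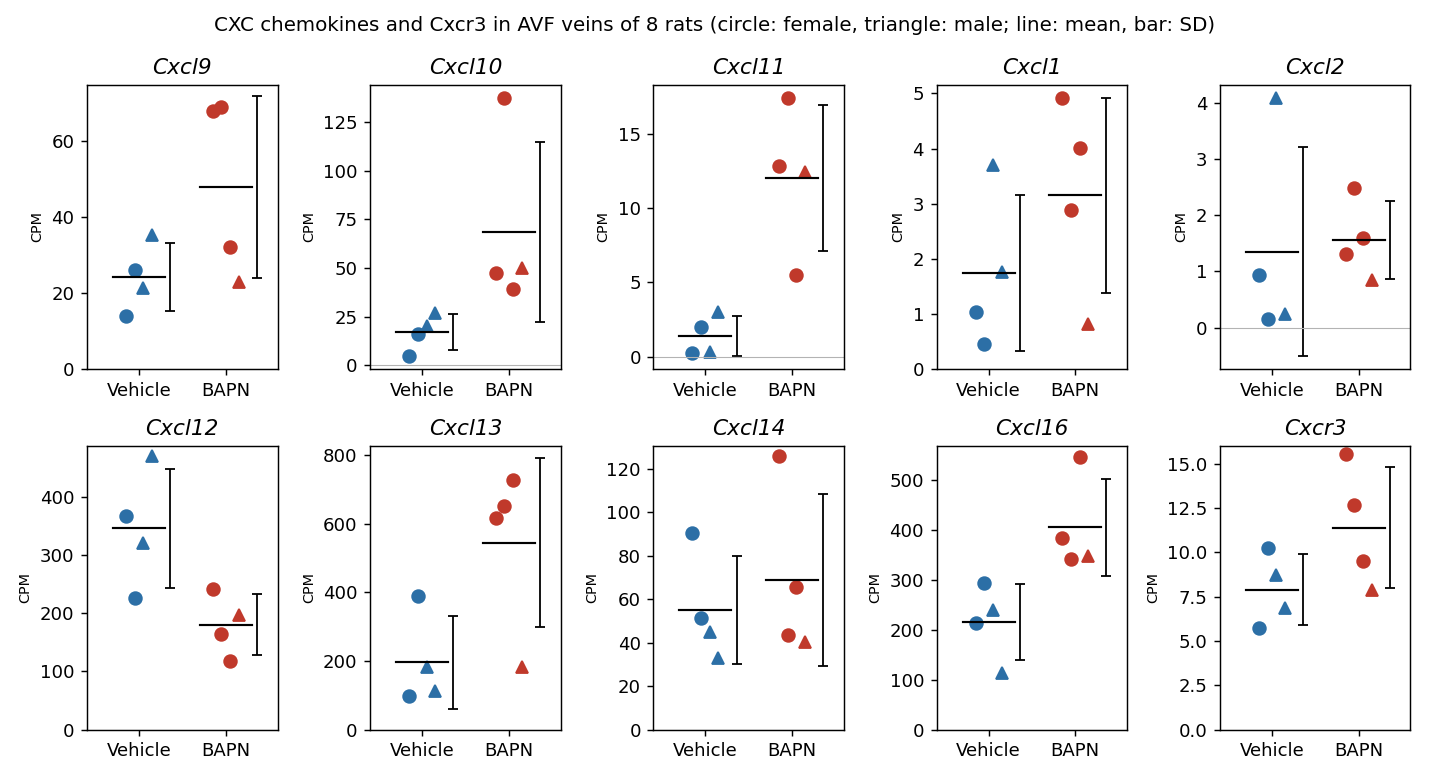
Level of each of the 10 CXC genes in each rat, in CPM on a linear axis that includes 0 and differs between panels, with females as circles, males as triangles, the group mean as a line and the SD (n = 4) as a bar. Cxcl11 lay between 5.47 and 17.4 CPM in BAPN rats and between 0.281 and 3.01 CPM in vehicle rats, whereas Cxcl12 was highest in 3 vehicle rats, with BAPN 1 (242 CPM) just above Vehicle 2 (225.5 CPM).

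Cxcl11 showed the largest fold change of the set. BAPN 1 to 4 had 12.8, 17.4, 5.47 and 12.4 CPM, and Vehicle 1 to 4 had 0.281, 2.03, 0.295 and 3.01 CPM. The vehicle values rest on 6, 41, 7 and 63 reads, so that in Vehicle 1 and Vehicle 3 the gene was close to the limit of detection. Every BAPN rat lay above every vehicle rat, and the vehicle rats fell into a lower and a higher pair of which each held 1 female and 1 male. The log2 fold change was 3.11 (SE 0.95, 95% interval 1.59 to 5.87, FDR 0.0247 by edgeR), with means of 12.0 ± 4.92 and 1.40 ± 1.35 CPM (SD, n = 4 each). For this gene taken alone, the exact two-sided permutation test gave p = 0.0286, which is the lowest value possible with these group sizes. The gene was not called when BAPN 2 (FDR 0.0506) or BAPN 4 (FDR 0.0517) was left out, nor without Vehicle 1 (FDR 0.0583), nor among females alone (FDR 0.0964).

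Cxcl10 measured 47.3, 138, 39.2 and 50.0 CPM in BAPN 1 to 4, against 4.73, 16.2, 20.3 and 27.0 CPM in Vehicle 1 to 4. BAPN 2 stood far above the other BAPN rats and Vehicle 1 below the other vehicle rats, and the lowest BAPN rat remained above the highest vehicle rat. On the log2 scale the fold change was 2.01 (SE 0.58, 95% interval 0.75 to 3.35, FDR 0.0371 by edgeR), with means of 68.6 ± 46.3 and 17.1 ± 9.36 CPM (SD, n = 4 each). In the exact permutation test of this gene p was 0.0286. Its call was less stable than that of Cxcl11, as it was kept in 1 of 8 fits that left out 1 rat. Without BAPN 2 the log2 fold change was 1.40 (FDR 0.0747) and without Vehicle 1 it was 1.70 (FDR 0.0661). Leaving out BAPN 1, 3 or 4 or Vehicle 2 or 3 gave log2 fold changes of 1.98 to 2.20 and FDRs of 0.0507 to 0.0688, and without Vehicle 4 the FDR was 0.0447. With sex as a covariate the FDR was 0.0649 and among females alone it was 0.103, at larger log2 fold changes (2.24 and 2.84).

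Cxcl9, the third ligand of Cxcr3, was not called. Its level was 68.0, 69.0, 32.2 and 22.9 CPM in BAPN 1 to 4, against 14.0, 26.0, 21.4 and 35.4 CPM in Vehicle 1 to 4. BAPN 1 and BAPN 2 were the highest libraries, whereas the male BAPN 4 lay between the vehicle males. The log2 fold change of 0.99 had a wide interval (SE 0.44, 95% interval -0.06 to 1.90, FDR 0.105 by edgeR; exact permutation p = 0.171), which took in both no change and values close to the estimate for Cxcl10. DESeq2 called the gene at an adjusted p of 0.0483. The 3 BAPN females were above both vehicle females, whereas the 1 BAPN male was above 1 of the 2 vehicle males, and this difference between the sexes was not tested.

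Since the ligands share a library, their ratios do not depend on how libraries were scaled. Per 1000 Cxcl12 reads there were 53.0, 105, 46.2 and 63.1 Cxcl11 reads in BAPN 1 to 4, against 0.764, 8.99, 0.920 and 6.40 in Vehicle 1 to 4, a ratio of medians of 15.9. For Cxcl10 the numbers were 196, 832, 332 and 254.8 with BAPN and 12.9, 71.7, 63.3 and 57.5 with vehicle, a ratio of medians of 4.86. Those of Cxcl9 were 281, 418, 272 and 117 with BAPN and 38.1, 115, 66.7 and 75.2 with vehicle, a ratio of medians of 3.90. All 3 interferon-induced ligands were thus separated between the groups when set against Cxcl12, Cxcl9 by a narrow margin between BAPN 4 and Vehicle 2. Cxcl12 itself fell with BAPN (log2 fold change -0.94), which raises these ratios in the BAPN group, and Cxcl9 overlapped between the groups in CPM. The share of all genes that separate on such a ratio was not computed. Against its neighbour Cxcl10, Cxcl11 had 271, 126, 139 and 248 reads per 1000 in BAPN 1 to 4 and 59.4, 125, 14.5 and 111 reads per 1000 in Vehicle 1 to 4, which did not overlap although BAPN 2 and Vehicle 2 almost met. Cxcl9 against Cxcl10 overlapped between the groups. No test was run on these ratios, and the read numbers do not compare the genes' levels with each other, as gene length was not taken into account.

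**Figure D2:**
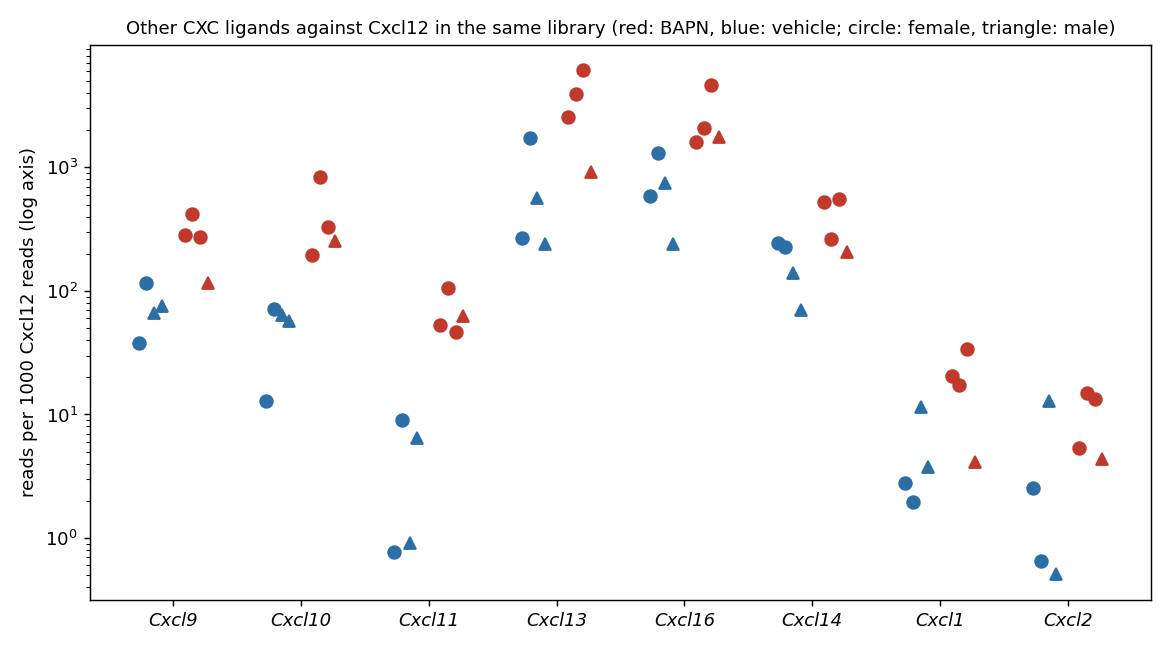
Reads of each ligand per 1000 Cxcl12 reads in the same library, on a log axis, 1 point per rat, with females as circles and males as triangles. The points of Cxcl9, Cxcl10, Cxcl11 and Cxcl16 are separate between BAPN and vehicle rats, and those of Cxcl1, Cxcl2, Cxcl13 and Cxcl14 overlap. Cxcl12 itself fell with BAPN, Cxcl9 overlapped in CPM, and the share of all genes that separate on this ratio was not computed.

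The receptor Cxcr3 was at 15.5, 12.7, 9.50 and 7.89 CPM in BAPN 1 to 4, against 5.76, 10.2, 8.75 and 6.88 CPM in Vehicle 1 to 4. The highest values were those of BAPN 1 and BAPN 2, which also had the highest Cxcl9, and BAPN 3 and BAPN 4 lay among the vehicle rats. A log2 fold change of 0.53 was not called (SE 0.30, 95% interval -0.15 to 1.19, FDR 0.181 by edgeR; exact permutation p = 0.143), and no setting or left-out rat brought it past the threshold (log2 fold change 0.34 to 0.68 over the 8 rats left out). Markers of the cells that carry this receptor were read beside it. Of 10 tested T cell markers, the adhesion molecule Cd2 (log2 fold change 1.38, FDR 0.0138) and the coreceptor Cd8a (1.33, FDR 0.0281) rose and 8 were not called, where 16.8% of all tested genes were called and 7.50% rose, and 0 of 3 tested natural killer cell markers were called. Cd2 was called with each of the 8 rats left out but not among females alone, and Cd8a was not called without BAPN 1, 2 or 3 (FDR 0.0566, 0.0510 and 0.0719), without Vehicle 4 (FDR 0.0594), with sex as a covariate (FDR 0.0649) or among females alone (FDR 0.121). Of the 10 tested T cell markers 9 had a positive log2 fold change, with a median of 0.94. Their summed level overlapped, at 399.5 to 484 CPM with BAPN and 316 to 532 CPM with vehicle, most of it from Cd4, which rat macrophages also carry, and the natural killer cell sum was 22.2 to 39.7 and 5.57 to 30.8 CPM with Gzmb at 0 in all libraries. The part of these cells in the chemokine levels was not tested.

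Genes of the interferon gamma pathway were read beside its target ligands. Of 13 tested, 3 rose and none fell, where 7.50% of all tested genes rose and 9.25% fell, and the median log2 fold change was 0.49 against 0.02 over all tested genes. The kinase gene Jak2, which carries the signal from the receptor, was at 167 to 190.1 CPM with BAPN and 107 to 123 CPM with vehicle (log2 fold change 0.63, SE 0.10, FDR 0.00946 by edgeR), and it was called with each of the 8 rats left out but not among females alone (FDR 0.0659). The receptor chain Ifngr2 (0.64, FDR 0.0457) and the transcription factor Irf1 (0.57, FDR 0.0300) rose as well, but Ifngr2 was called in 1 and Irf1 in 2 of the 8 fits that left out a rat. Both calls were lost when a term for sex was added (FDR 0.0838 and 0.0680), among females alone (FDR 0.252 and 0.111) and with total counts alone (FDR 0.0760 and 0.0601). Transcripts of interferon gamma itself were scarce, with 16, 22, 1 and 4 Ifng reads in BAPN 1 to 4, against 0, 7, 0 and 5 in Vehicle 1 to 4, too few for a comparison at this depth.

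The neutrophil ligands had far fewer reads and lay below the expression limit, so their values come from a fit over the 20421 genes with at least 1 count. Cxcl1 was at 4.92, 2.88, 4.01 and 0.814 CPM in BAPN 1 to 4, against 1.03, 0.445, 3.70 and 1.77 CPM in Vehicle 1 to 4. BAPN 4 was among the lowest and Vehicle 3 among the highest libraries, and the groups overlapped. Its log2 fold change of 0.88 was not called (SE 0.80, 95% interval -0.84 to 2.73, FDR 0.406 by edgeR; exact permutation p = 0.286). With a rat left out the log2 fold change of Cxcl1 ranged from 0.57 to 1.56, and among females alone it was 2.43 (FDR 0.0567). Cxcl2 was at 1.31, 2.49, 1.59 and 0.856 CPM in BAPN 1 to 4, against 0.936, 0.148, 4.08 and 0.239 CPM in Vehicle 1 to 4. The highest library of all was Vehicle 3, and the 3 and 5 reads of Vehicle 2 and Vehicle 4 were the lowest. For Cxcl2 the log2 fold change was 0.23 (SE 0.83, 95% interval -0.69 to 2.99, FDR 0.882 by edgeR; exact permutation p = 0.314), and it was 1.82 without Vehicle 3 and turned negative without BAPN 2 (-0.09), Vehicle 2 (-0.14) or Vehicle 4 (-0.12). The intervals of both genes include changes as large as that of Cxcl10, so these data set no upper bound below it. Cxcl1, Cxcl2 and Cxcl3 have similar sequences, and how reads shared between them were counted was not given in the sources used here.

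Among the other genes of the neutrophil axis, the ligands Cxcl3 (log2 fold change -0.02, FDR 0.979) and Cxcl6 (0.62, FDR 0.372) were not called. Their receptor Cxcr2 was below the expression limit (-0.13, FDR 0.903 without the limit), and the related receptor Cxcr1, also below it, had 112, 158, 158 and 166 reads in BAPN 1 to 4, against 25, 13, 24 and 12 in Vehicle 1 to 4. On the CPM scale Cxcr1 was at 2.32 to 3.64 CPM with BAPN and 0.573 to 1.17 CPM with vehicle, without overlap, and in the fit without the limit its log2 fold change was 1.91 (FDR 0.0198), where 7.54% of 20421 genes were called and 3.51% were called higher. Without BAPN 3 (FDR 0.0583) or BAPN 4 (FDR 0.0517), and among females alone (FDR 0.113), it was not called. Of 3 tested neutrophil markers 0 were called, and the summed level of all 7 markers was 32.3 to 70.7 CPM with BAPN and 20.1 to 53.3 CPM with vehicle.

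Of the 8 tested members, Cxcl12 had the only negative fold change. It was at 242, 165, 118 and 196 CPM in BAPN 1 to 4, against 368, 225.5, 320.4 and 471 CPM in Vehicle 1 to 4. Vehicle 2 was the lowest vehicle rat and lay just under BAPN 1, and the other vehicle rats were above all BAPN rats. This is a log2 fold change of -0.94 (SE 0.27, 95% interval -1.54 to -0.34, FDR 0.0417 by edgeR), and the exact permutation test of this gene gave p = 0.0571. Its call was kept without BAPN 1 (FDR 0.0405) or Vehicle 2 (FDR 0.0224) and lost without BAPN 2, 3 or 4 (FDR 0.0837, 0.0980 and 0.0755) or Vehicle 1, 3 or 4 (FDR 0.0991, 0.0686 and 0.0856). It was also lost without the expression limit (FDR 0.0519), with sex as a covariate (FDR 0.0861) and among females alone (log2 fold change -0.76, FDR 0.213).

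Of the receptors of Cxcl12, the signaling receptor Cxcr4 was not called (log2 fold change 0.35, FDR 0.449), while Ackr3, which removes Cxcl12 and Cxcl11 from the tissue, fell. Ackr3 was at 71.3, 56.5, 51.2 and 58.5 CPM in BAPN 1 to 4, against 149, 87.8, 101 and 102 CPM in Vehicle 1 to 4, so all BAPN rats were below all vehicle rats. Its log2 fold change was -0.89 (SE 0.17, 95% interval -1.26 to -0.48, FDR 0.0164 by edgeR), and with any 1 of the 8 rats left out it was still called (FDR 0.0132 to 0.0469), but not among females alone (FDR 0.0986). The number of Ackr3 reads per 1000 Cxcl12 reads overlapped, at 295 to 433 with BAPN and 217 to 406 with vehicle. Some endothelial, smooth muscle and adipocyte markers also fell, where 9.25% of all tested genes did. Of 4 tested endothelial markers, Tek (log2 fold change -1.24, FDR 0.00890) and Vwf (-1.99, FDR 0.0389) fell and Cdh5 and Kdr were not called. All 4 had a negative log2 fold change. Their summed level did not overlap, at 186 to 358 CPM with BAPN and 456 to 1162 CPM with vehicle. Of 5 tested smooth muscle markers Myh11 (-1.60, FDR 0.0148), Cnn1 (-1.60, FDR 0.0295) and Smtn (-0.95, FDR 0.0254) fell and Acta2 and Tagln were not called, and the summed level overlapped between the groups. Myh11 was called with each of the 8 rats left out, Cnn1 with 3 of them (BAPN 2, Vehicle 2 or Vehicle 4) and Smtn with 4 (BAPN 1, BAPN 2, Vehicle 1 or Vehicle 2), otherwise at FDRs of 0.0541 to 0.0782 and 0.0507 to 0.0699. With sex as a covariate Cnn1 (FDR 0.0507) and Smtn (FDR 0.0663) were not called. Among females alone Tek (FDR 0.0783), Vwf (FDR 0.0504), Myh11 (FDR 0.111), Cnn1 (FDR 0.153) and Smtn (FDR 0.204) were not called. Of 4 tested adipocyte markers Plin1 fell (-2.13, FDR 0.0443) and was called in 1 of 8 fits that left out a rat, without Vehicle 4, and Adipoq (-1.61), Cidec (-1.43) and Fabp4 (0.70) were not called. Their summed level was 1059.9 to 2925 CPM with BAPN and 436 to 1694 CPM with vehicle, most of it from Fabp4. Vwf was highest in Vehicle 1, at 768 CPM against 106 to 269 CPM in the other vehicle rats, and without that rat its log2 fold change was -1.13 (FDR 0.0670). It was also not called without any 1 of the BAPN rats (FDR 0.0639 to 0.0966). Of 6 fibroblast markers 0 were called, with a summed level of 22985 to 36089 CPM and 28092 to 93848 CPM. The part of these cells in the Cxcl12 and Ackr3 levels was not tested.

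**Figure D3:**
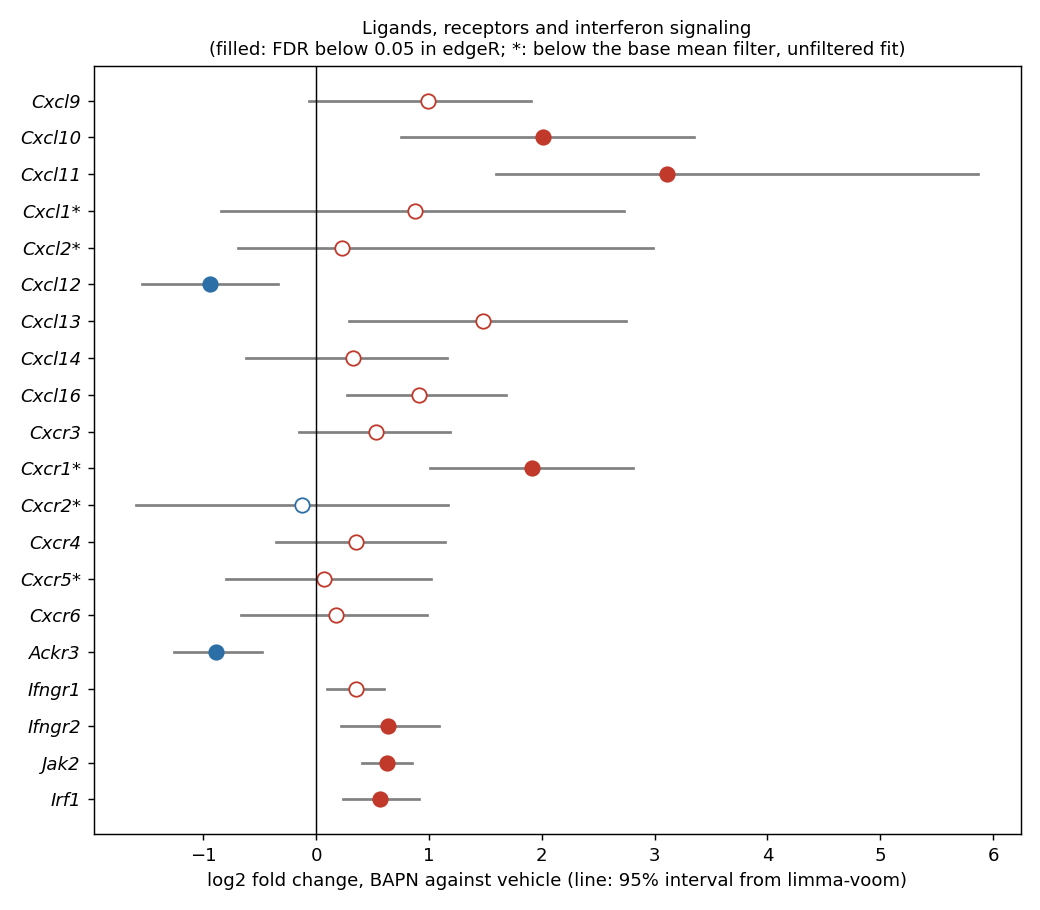
Log2 fold change, BAPN against vehicle, of each CXC gene, other CXC receptors and interferon gamma signaling genes, with its 95% limma-voom interval, filled where edgeR's FDR was below 0.05 and starred where the value comes from the fit without the expression limit. Of the 10 CXC genes of the set, the intervals of Cxcl10, Cxcl11, Cxcl13 and Cxcl16 lie above 0 and that of Cxcl12 below it, before adjustment for the number of genes, and those of Cxcl1, Cxcl2, Cxcl9, Cxcl14 and Cxcr3 include 0.

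Cxcl13 was at 617, 653, 727 and 182 CPM in BAPN 1 to 4, against 98.1, 389.6, 182 and 113 CPM in Vehicle 1 to 4. The 3 BAPN females were above all other rats, and the male BAPN 4 was level with Vehicle 3. With a log2 fold change of 1.48 the gene was not called (SE 0.55, 95% interval 0.29 to 2.75, FDR 0.0762 by edgeR; exact permutation p = 0.0857), with means of 545 ± 246 and 196 ± 134 CPM (SD, n = 4 each). Without BAPN 4 (1.76, FDR 0.0483) or Vehicle 2 (2.05, FDR 0.0233) it passed the threshold, and DESeq2 called it with all rats (adjusted p = 0.0127). Markers of B cells, which Cxcl13 guides, were also low in BAPN 4. Their summed level was 18.4, 25.2, 32.8 and 3.24 CPM in BAPN 1 to 4, against 5.85, 2.17, 10.6 and 4.59 CPM in Vehicle 1 to 4. Among vehicle rats the order differed from that of Cxcl13, with Vehicle 2 the lowest here and the highest for Cxcl13. The T cell marker Cd3e was low in BAPN 4 as well, at 16.3, 12.5, 23.4 and 3.82 CPM in BAPN 1 to 4, against 3.28, 8.80, 6.99 and 2.05 CPM in Vehicle 1 to 4. The 1 tested B cell marker of 6, Cd79b, barely passed the expression limit (base mean 100.2), and did so through BAPN 1 to 3. It had 256, 398, 336 and 35 reads in BAPN 1 to 4, against 18, 7, 46 and 11 in Vehicle 1 to 4. Its call therefore cannot stand for the list. Cd79b rose (log2 fold change 2.55, FDR 0.0458) but overlapped between the groups and was called in 2 of 8 fits that left out a rat, without BAPN 4 or Vehicle 3. It was not called at equal library totals (FDR 0.0631), with total counts alone (FDR 0.0559) or with sex as a covariate (FDR 0.186). The receptor Cxcr5 was below the expression limit and showed no called difference (0.07, 95% interval -0.80 to 1.02). The part of B cells or T cells in the Cxcl13 level was not tested.

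Cxcl16 was higher in every BAPN rat than in any vehicle rat but narrowly missed the threshold. It was at 385, 342, 548 and 348.4 CPM in BAPN 1 to 4, against 214, 295, 241 and 113 CPM in Vehicle 1 to 4. BAPN 3 was the highest and Vehicle 4 the lowest library. Its log2 fold change was 0.91 (SE 0.31, 95% interval 0.27 to 1.68, FDR 0.0541 by edgeR; exact permutation p = 0.0286), with means of 406 ± 96.7 and 216 ± 76.1 CPM (SD, n = 4 each). Without Vehicle 2 it passed the threshold (1.10, FDR 0.0340), as it did with DESeq2 (adjusted p = 0.0101), and the other rats left out gave FDRs of 0.0641 to 0.138. Its receptor Cxcr6 was not called (0.18, FDR 0.728). Neither Adam10 (-0.33, FDR 0.167) nor Adam17 (0.29, FDR 0.187), the proteases that shed Cxcl16, was called, and of the 5 proteases that cut CXC ligands 0 were. Of 6 tested macrophage markers 0 were called and 5 had a positive log2 fold change, with a summed level of 2144 to 2818 CPM with BAPN and 1403 to 2529.6 CPM with vehicle and Marco at 0 in all libraries. The part of macrophages in the Cxcl16 level was not tested.

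Cxcl14 was at 126, 43.7, 65.7 and 40.2 CPM in BAPN 1 to 4, against 90.4, 51.3, 44.9 and 33.0 CPM in Vehicle 1 to 4. The groups were interleaved, with BAPN 1 and Vehicle 1 the highest of their groups. The log2 fold change of 0.33 was not called (SE 0.40, 95% interval -0.62 to 1.16, FDR 0.586 by edgeR; exact permutation p = 0.600), and it was -0.14 without BAPN 1. The remaining CXC ligands were also not called. Pf4, released by platelets, had a log2 fold change of 0.63 (FDR 0.114), and Ppbp, another platelet ligand, had at most 10 reads in any library. Cxcl17, a mucosal chemokine below the expression limit, had 46, 108, 32 and 42 reads in BAPN 1 to 4, against 0, 3, 16 and 2 in Vehicle 1 to 4, which did not overlap as CPM (2.35, FDR 0.150 without the limit).

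Calls of the set depended on the rats and the test. DESeq2 on the same genes called 6 of the 8 tested genes, adding Cxcl9, Cxcl13 and Cxcl16, where it called 27.4% of all tested genes, 12.3% higher and 15.1% lower. Adding sex as a covariate left Cxcl11 alone (FDR 0.0481), and the 3 BAPN against 2 vehicle females gave 0 calls, with 89 called among all genes. With 1 rat left out, between 0 and 4 members were called. No member was called without BAPN 2 or without Vehicle 1, where 1224 and 397 of all tested genes were called. Without Vehicle 2, 4 members were called, where 2215 of all tested genes were. The members' count did not always follow that over all genes, as 2 were called without Vehicle 4, where 963 genes were. Cxcl11 alone was called without BAPN 3 or Vehicle 3, and Cxcl13 alone without BAPN 4. The directions of Cxcl9, Cxcl10, Cxcl11, Cxcl12, Cxcl13, Cxcl16, Cxcl1 and Cxcr3 were the same in all 8 of these fits.

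**Figure D4:**
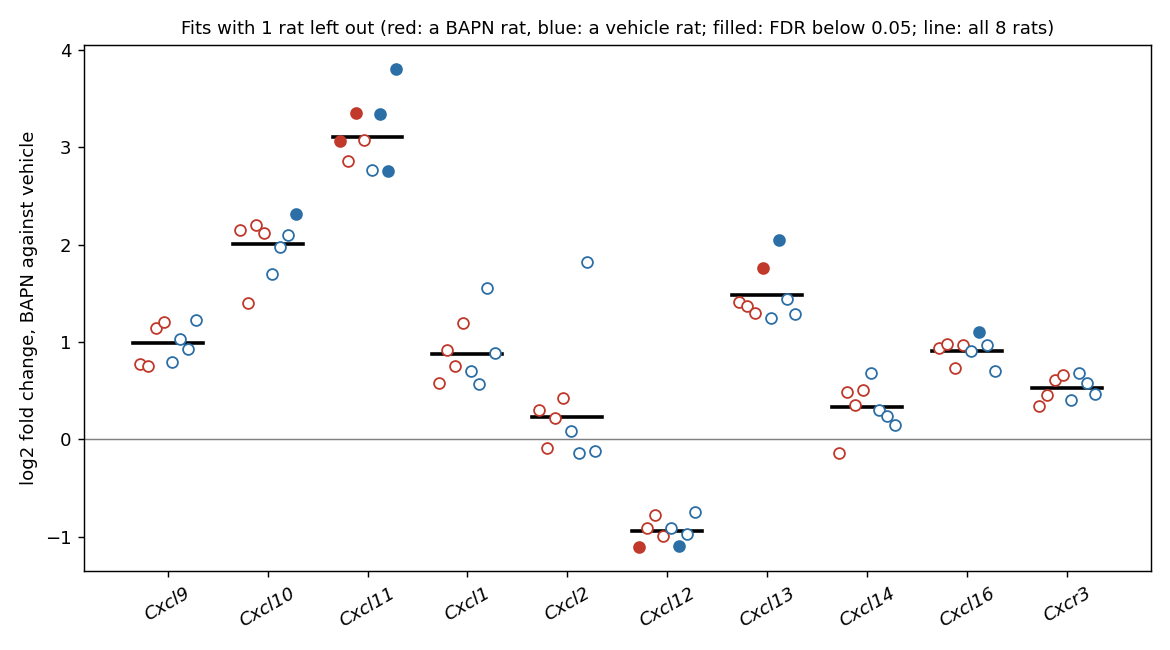
Log2 fold change of each of the 10 CXC genes with each of the 8 rats left out in turn (red, a BAPN rat; blue, a vehicle rat), filled where edgeR's FDR was below 0.05, with a line at the value over all 8 rats. Cxcl11 stayed between 2.76 and 3.81, Cxcl10 between 1.40 and 2.32 and Cxcl12 between -1.11 and -0.75, and Cxcl2 and Cxcl14 crossed 0.

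The variation between rats of the same group was compared among the genes by subtracting each group's mean log2 CPM, which leaves 8 values that share library, depth and rat. Cxcl9, Cxcl10 and Cxcl11 varied together (Pearson correlations of 0.62 to 0.69), as did Cxcl1 and Cxcl2 (0.67). Inverse correlations beyond -0.6 were those of Cxcl12 with Cxcl16 (-0.81) and Cxcl13 (-0.63), Cxcl11 with Cxcl2 (-0.74) and Cxcl10 with Cxcl14 (-0.71), and Cxcr3 varied with Cxcl13 (0.79) and with its ligand Cxcl9 (0.75). The tested genes most like Cxcl9 in this measure were Adgre1, a macrophage receptor, P2rx5 and Nlrc5, an activator of class I histocompatibility genes (0.96 each). Closest to Cxcl10 were Hspa1b (0.97), a heat shock protein, Tmem69 and Gprasp1 (0.95 each), and closest to Cxcl11 were Zzz3 (0.97), Slc41a2 and Ocrl (0.93 each). Cxcl12 was most like Ppip5k1 (0.98), Srgap3 and Herc1 (0.97 each), and Cxcl13 most like RT1-CE5 (0.98), Ap5b1 and Ccna2 (0.97 each). For Cxcl14 these were Wbp1l (0.96), Lrig2 (0.95) and Pon3 (0.94), for Cxcl16 RT1-DOb, Il2rg and Piwil2 (0.99 each), and for Cxcr3 Tle4, Bub1b (0.96 each) and Stx11 (0.95). With 8 rats and 11682 genes searched, correlations of this size describe the libraries only.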

How the data were processed

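Outflow veins of 8 rats, 4 with BAPN and 4 with vehicle scaffolds, were grouped by the labels. The authors prepared stranded libraries from ribosome-depleted total RNA and deposited raw read counts per gene for 32623 Ensembl genes. The submitters' processing notes name bcl2fastq 2.17, Trim Galore and STAR. The counting tool, its strand setting and the genome build were not given in the sources used here.

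The deposited counts were used unchanged. As in the study's methods, genes were tested where the base mean (counts divided by DESeq2 size factors, averaged over libraries) reached 100. The comparison used edgeR 4.0.16 (TMM, quasi-likelihood test, no covariates) in R 4.3.3, with Benjamini-Hochberg adjustment over 11682 genes. Standard errors and intervals came from limma 3.58.1 (voom). The study names a DESeq plug-in without settings, so DESeq2 1.42.0 was an alternative. CPM are over tested genes, and a prior count of 2 was added on the log2 scale. Single-gene exact permutation tests went through all 70 arrangements and were two-sided. In simulated counts with these library sizes, edgeR recovered 176 of 200 genes changed by 1.5 on the log2 scale with 14 false calls among 11682. DESeq2 recovered 191 of them with 45 false calls. Whether the 4 rats of a group shared a surgery day or litter is not stated.

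Other alternatives were other scalings and filters, a term for sex, a fit to females only, a block for the replicate number, equal totals and each library left out. Promoter windows were read from RefSeq (GRCr8), in which 10 of 10 genes matched by symbol. Named genes are the 10 members, the listed genes of their pathway that were called or form a ligand and receptor pair, called or defining cell type markers, and the 3 most similarly varying genes for each tested member. Cxcl17, Ppbp, Pf4, Ifng, Adam10, Adam17, Cd3e, Cd4, Fabp4, Gzmb, Marco and the uncalled members of the endothelial, smooth muscle and adipocyte lists were named once their values were known. The members and lists were chosen with earlier results of these data known. Ackr1 and Pecam1 were not analysed here, and 1 gene of the interferon gamma list is not reported here.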

Additional observations from a re-analysis of the deposited data

Results flagged for a closer look

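Cxcl10 stood at 138 CPM in BAPN 2, far from the 39.2 to 50.0 CPM of the other 3 BAPN rats. The gap took up 0.890 of the group's range, more than Dixon's test at the 95% level allows for 4 samples. 20 groups were examined, and chance passes this limit in about 1 group in 20. Epithelial markers were also highest in BAPN 2 (summed level 39.4 CPM against 4.20 to 14.5 CPM in the other BAPN rats and 4.97 to 7.88 CPM with vehicle), of which 0 of 2 tested were called. Smooth muscle markers were likewise highest in BAPN 2 among the BAPN rats (3926 CPM against 1404 to 2012 CPM) but lay between 2873 and 5508 CPM with vehicle. Their part in the Cxcl10 level was not tested. Without BAPN 2 the log2 fold change of Cxcl10 was 1.40.

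The levels of Cxcl1, which was not called, stood in opposite order between the groups in females and males. All 3 BAPN females (2.88 to 4.92 CPM) lay above both vehicle females (0.445 and 1.03 CPM), and the 1 BAPN male (0.814 CPM) lay below both vehicle males (1.77 and 3.70 CPM). The difference between the sexes was not tested, and it rests on 1 BAPN male.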

How the results depend on the processing

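Of the 3 called genes, Cxcl10, Cxcl11 and Cxcl12, all were also called with other scalings (RLE, upper quartile, total counts), another filter (filterByExpr) and equal totals. DESeq2 called 6 members and 3202 genes, sex as a covariate left 1 and 930, and females alone gave 0 and 89. With a rat left out the numbers ranged from 0 to 4 members and from 397 to 2215 genes. The replicate numbers do not pair the rats (correlations of same-numbered rats -0.26 to 0.27), and with the replicate block 1 member (Cxcl11) and 556 genes were called. Total counts alone gave 504 genes higher and 1161 lower (30.3% higher, against 44.8%). With a rat left out, the log2 fold change of Cxcl2 ranged from -0.14 to 1.82, negative without BAPN 2 (-0.09), Vehicle 2 (-0.14) or Vehicle 4 (-0.12), and that of Cxcl14 from -0.14 (without BAPN 1) to 0.68, and the cause was not tested. Over the 10 members, Cxcr1 and the called genes of the other lists, 313 values kept direction and side of the threshold, 102 lost the call, 7 gained it and 4 turned. Without a filter 2 members were called. Depth limits Cxcl1, Cxcl2, Cxcl11 and Ifng, which had fewer than 10 reads in 1 or more vehicle libraries.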
